A study of Mus musculus with 8 samples.

Results

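The RNAs described here are those transcribed from the mitochondrial genome, taken as every gene of the deposited expression table whose symbol starts with "mt-". There were 9 of them among the 12339 genes of the table. They comprise both mitochondrial ribosomal RNAs (mt-Rnr1 and mt-Rnr2), 5 mRNAs for subunits of complex I (mt-Nd1, mt-Nd2, mt-Nd4, mt-Nd5 and mt-Nd6), the mRNA for cytochrome b of complex III (mt-Cytb) and the mRNA for the catalytic subunit of complex IV (mt-Co1). The samples were mouse retina at postnatal day 14 (P14) of oxygen-induced retinopathy (OIR), a model in which young mice are exposed to high oxygen and then returned to room air, so that retinal vessels are first lost and then regrow abnormally. Nrf2 was deleted only in Müller cells (Nrf2 cKO) in 4 samples, and 4 were wild type (WT), and all 8 went through OIR. RNA was collected by RiboTag, which pulls down tagged ribosomes from a chosen cell type of a whole tissue, here Müller cells, the principal glia of the retina. Both groups carry the replicate numbers 1, 3, 4 and 5. The labels name neither the promoter that drives the deletion and the tag nor the deleted exon, sex or litter, and do not say whether a sample was 1 animal, so the spread between samples may be partly technical.

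Mitochondrial DNA is a small circle transcribed from both strands into long precursors, and most of its mRNAs and rRNAs are released where transfer RNAs that lie between them are excised. Its protein genes all encode subunits of the respiratory chain and the ATP synthase, while the other subunits come from nuclear genes and are imported. Mitochondrial mRNAs are translated inside the organelle on ribosomes built on mt-Rnr1 and mt-Rnr2, and these ribosomes are distinct from the cytosolic ones that hold Rpl22, the protein tagged in RiboTag mice. Nrf2, encoded by Nfe2l2, is a transcription factor best known for inducing antioxidant genes.

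All 9 mitochondrially encoded RNAs were lower in cKO than in WT in each of the 4 same-numbered pairs of libraries, so 36 of 36 pair differences were negative. Their log2 differences ran from −0.36 for mt-Nd4 to −0.66 for mt-Nd1, with a median of −0.48, whereas the median over all 12339 genes was 0.00. Converted from log2 differences to percent, they were 22.2% to 36.9% lower in cKO. The values are FPKM, the fragment counts scaled to transcript length and library total that the authors deposited. Among all genes, 19.5% were lower in all 4 pairs. With the replicate number as a block, limma called 9 of 9 lower, against 7.59% of all genes called lower, with adjusted p between 0.00279 and 0.0242. Without the block it called 0 of 9, and 0% of the 12339 genes in either direction, with adjusted p between 0.149 and 0.453. Without the block 9 of 9 had an unadjusted p under 0.05, as did 6.67% of all genes on the lower side. The block is given because libraries with the same number deviated together from their group means, and values here are differences of log2(FPKM + 0.5), cKO minus WT, adjusted over 12339 genes at a threshold of 0.05.

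The mitochondrial genome carries 37 annotated genes in GENCODE mouse release M21 on GRCm38, and the table holds 2 of its 2 rRNAs, 7 of its 13 protein-coding genes and 0 of its 22 tRNAs. The table has no gene with a mean FPKM of 2 or less over the 8 libraries. On chromosome M, mt-Rnr1 spans 70 to 1024, mt-Rnr2 1094 to 2675, mt-Nd1 2751 to 3707, mt-Nd2 3914 to 4951, mt-Co1 5328 to 6872, mt-Nd4 10167 to 11544, mt-Nd5 11742 to 13565 and mt-Cytb 14145 to 15288, all on the plus strand. mt-Nd6, at 13552 to 14070, is the only one on the minus strand. None has an intron. Of the 18 ends of these genes, 15 have a tRNA as the next annotated gene. The ends without one are the start of mt-Nd4, which overlaps mt-Nd4l, and the facing ends of mt-Nd5 and mt-Nd6, which overlap each other by 14 bases.

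The last 30 bases of each annotated protein-coding gene are shown, written in the direction of the transcript, because they show how tightly the genes are packed. The annotation ends each gene at its stop codon, and for 5 of the 7 the next gene at that end is a tRNA, while mt-Nd5 and mt-Nd6 run towards each other. Capitals mark the stop codon as far as the DNA encodes it.
mt-Nd1: tttacagcgggagtaccaccatacataTAG
mt-Nd2: ctacccctagccccccaactaattaccTAG
mt-Co1: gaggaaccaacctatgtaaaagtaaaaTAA
mt-Nd4: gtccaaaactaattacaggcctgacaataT
mt-Nd5: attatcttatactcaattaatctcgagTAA
mt-Nd6: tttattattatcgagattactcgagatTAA
mt-Cytb: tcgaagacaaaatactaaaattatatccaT
For mt-Nd4 and mt-Cytb the DNA encodes only the first base of the stop codon, and in such transcripts the poly(A) tail supplies the rest. Library preparation here began with poly(A) selection. In human cells the mRNA of ND6 is known to lack a poly(A) tail.

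The overlap of mt-Nd5 with mt-Nd6, at bases 13552 to 13565 of chromosome M, reads as follows on the plus strand.
Overlap: TTAATCTCGAGTAA
The deposited table gives mt-Nd5 and mt-Nd6 1 shared position that covers both genes, and the strand setting of the counting is not given in the sources used here, so how reads at this junction were divided is not known.

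Nfe2l2 was measured at 12.7, 16.5, 14.8 and 10.4 FPKM in cKO replicates 1, 3, 4 and 5, against 17.5, 18.8, 23.1 and 17.5 FPKM in WT. The cKO libraries all lay below the WT libraries, with a log2 difference of −0.50 (limma adjusted p = 0.0219 with the block and 0.453 without). Rpl22, the ribosomal protein that carries the tag in RiboTag mice, averaged 163 ± 15.9 FPKM in cKO and 152 ± 15.1 FPKM in WT (0.10; 0.329 and 0.709). Values per library summed to between 410581 and 448130 FPKM over all genes. The number of fragments behind a value is unknown. Of the Müller cell markers, 14 of 15 were in the table, with summed levels of 11247 to 15717 FPKM in cKO and 10513 to 17695 FPKM in WT. Of the microglial markers, 0 of 10 were in the table. Markers of rods and bipolar cells were also abundant, summing to 4128 to 6465 and 2688 to 3424 FPKM in cKO and to 3934 to 6073 and 2170 to 2791 FPKM in WT, so the RNA was not from Müller cells alone. Xist was at 25.0, 50.004, 0.0863 and 0.00505 FPKM in cKO and at 58.1, 72.1, 39.9 and 27.0 FPKM in WT, so cKO replicates 4 and 5 stood apart from the other 6 libraries. Pairs 4 and 5 thus join a cKO library almost without Xist to a WT library with it. The labels do not give sex, so whether the libraries of these pairs match in sex is not known. In RNA from a tissue, fewer cells of a type and less RNA per cell cannot be told apart.

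Among the complex I mRNAs, mt-Nd1 encodes the subunit at the junction of the membrane arm and the matrix arm, next to the site where ubiquinone binds. It was measured at 69.2, 77.1, 70.04 and 59.8 FPKM in cKO replicates 1, 3, 4 and 5, against 103, 106, 114 and 114 FPKM in WT. Each cKO library lay below each WT library, and WT replicate 5, whose cKO partner was the lowest of all 8, was the highest. The means were 69.0 ± 7.09 FPKM in cKO and 109 ± 5.58 FPKM in WT (SD, n = 4 each). The log2 difference of −0.66 had a standard error of 0.083 with the block (limma adjusted p = 0.00412) and of 0.097 without (0.149), and it was the largest difference among the 9 RNAs. Within pairs 1, 3, 4 and 5 it was −0.57, −0.46, −0.69 and −0.93.

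mt-Nd2 encodes a proton-pumping subunit of the membrane arm. It was measured at 42.8, 42.5, 42.8 and 35.4 FPKM in cKO, against 66.0, 64.5, 59.7 and 51.2 FPKM in WT. The groups did not overlap, and replicate 5 was the lowest library of each group. The means were 40.9 ± 3.65 FPKM in cKO and 60.3 ± 6.64 FPKM in WT, and the log2 difference was −0.55 with a standard error of 0.060 with the block (adjusted p = 0.00279; 0.306 without). The differences within pairs 1, 3, 4 and 5 were close to each other, at −0.62, −0.59, −0.48 and −0.53.

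mt-Nd4, another proton-pumping subunit, had the smallest difference. It was measured at 31.9, 35.0, 32.5 and 24.4 FPKM in cKO, against 40.9, 40.4, 40.9 and 36.4 FPKM in WT. All cKO libraries lay below all WT libraries, although cKO replicate 3 and WT replicate 5 were near each other. The log2 difference was −0.36 with a standard error of 0.075 with the block (adjusted p = 0.0242; 0.453 without). Its call with the block did not hold without pair 1, 4 or 5, when the adjusted p was 0.0852, 0.0774 and 0.0628. Thus 3 of 9 RNAs, mt-Nd1, mt-Nd2 and mt-Nd4, had groups that did not overlap, and each cKO library lay below each WT library for 2.28% of all genes.

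mt-Nd5, the proton-pumping subunit at the far tip of the membrane arm, varied most among replicates on the log2 scale. It was measured at 74.3, 103, 46.5 and 61.9 FPKM in cKO, against 122, 130.4, 91.7 and 85.7 FPKM in WT. The groups overlapped, since cKO replicate 3 lay above WT replicates 4 and 5. The means were 71.6 ± 24.1 FPKM in cKO and 107 ± 22.0 FPKM in WT. The log2 difference of −0.62 had a standard error of 0.102 with the block and 0.229 without (adjusted p = 0.0111 and 0.453), and within pairs it ranged from −0.33 in pair 3 to −0.97 in pair 4. Without pair 1 the blocked adjusted p was 0.0575.

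mt-Nd6, the membrane-arm subunit encoded on the opposite strand, was measured at 145, 167, 121 and 109 FPKM in cKO, against 207, 221, 216 and 145 FPKM in WT. WT replicate 5 was far below the other WT libraries and below cKO replicates 1 and 3, so the groups overlapped. The means were 136 ± 25.8 FPKM in cKO and 197 ± 35.5 FPKM in WT. The log2 difference was −0.54 with a standard error of 0.083 with the block (adjusted p = 0.00846; 0.453 without), and it was −0.51, −0.40, −0.83 and −0.41 within pairs 1, 3, 4 and 5. The values for mt-Nd6 were lower in cKO in all 4 pairs, as were those of the 8 plus-strand genes. Since the strand setting of the counting is not given, how far the mt-Nd6 values come from minus-strand RNA is not known.

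mt-Cytb encodes cytochrome b, the only subunit of complex III made in mitochondria. It was measured at 87.9, 92.3, 73.3 and 74.5 FPKM in cKO, against 117, 118, 117 and 91.8 FPKM in WT. Of the WT libraries 3 were almost equal and above all cKO libraries, and WT replicate 5 lay within the cKO range, just below cKO replicate 3. The means were 82.0 ± 9.52 FPKM in cKO and 111 ± 12.8 FPKM in WT, and the log2 difference was −0.43 with a standard error of 0.074 with the block (adjusted p = 0.0127; 0.453 without). Without pair 1 the blocked adjusted p was 0.0522.

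mt-Co1 encodes the catalytic subunit of complex IV, which reduces oxygen to water, and had the highest level per length of the 9 RNAs. It was measured at 210.2, 231, 168 and 171 FPKM in cKO, against 282, 288, 227 and 222 FPKM in WT. In both groups replicates 1 and 3 were high and replicates 4 and 5 were low, so that cKO replicate 3 lay above WT replicates 4 and 5. The means were 195 ± 30.8 FPKM in cKO and 255 ± 35.1 FPKM in WT. The difference was nearly the same in every pair, at −0.43, −0.32, −0.44 and −0.37 in pairs 1, 3, 4 and 5, and the log2 difference of −0.39 had a standard error of 0.059 with the block and 0.141 without (adjusted p = 0.00783 and 0.453).

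The rRNAs form the 2 subunits of the mitochondrial ribosome. mt-Rnr2, the 16S rRNA of the large subunit, was measured at 62.9, 81.8, 63.2 and 53.9 FPKM in cKO, against 89.0, 114, 83.4 and 80.0 FPKM in WT. Replicate 3 was the highest and replicate 5 the lowest in both groups, and cKO replicate 3 overlapped WT. The log2 difference was −0.48 with a standard error of 0.059 with the block (adjusted p = 0.00383; 0.453 without), and within pairs it was −0.50, −0.47, −0.40 and −0.57. mt-Rnr1, the 12S rRNA of the small subunit, was measured at 15.9, 20.1, 17.0 and 11.5 FPKM in cKO, against 23.9, 26.4, 20.4 and 18.0 FPKM in WT. Replicate 3 was again the highest and replicate 5 the lowest in both groups, and cKO replicate 3 lay above WT replicate 5. The log2 difference was −0.46 with a standard error of 0.084 with the block (adjusted p = 0.0154; 0.453 without, and 0.0752 with the block but without pair 1).

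**Figure D1:**
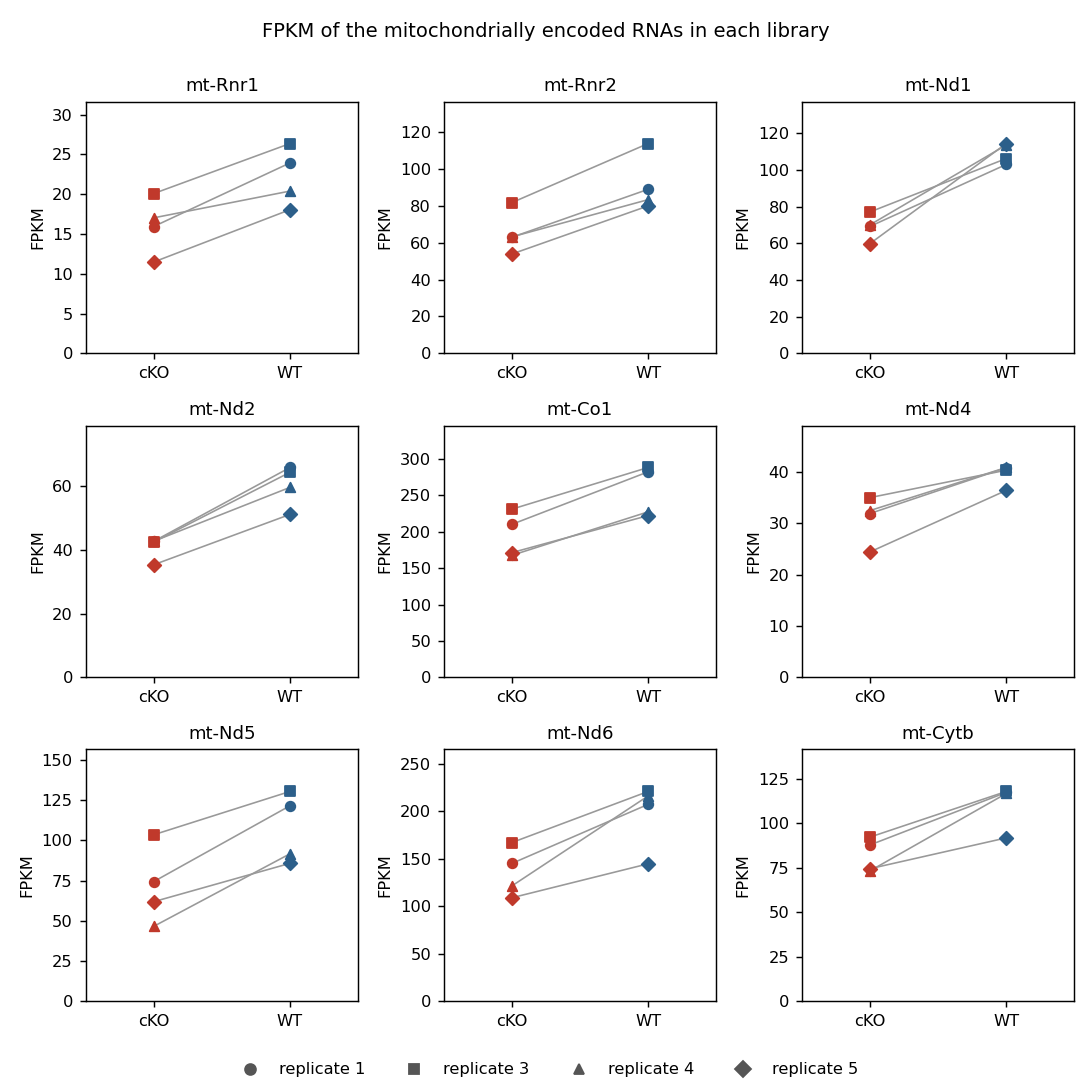
FPKM (vertical axes, each starting at 0) of the 9 mitochondrially encoded RNAs in the 4 cKO libraries (red, left) and the 4 WT libraries (blue, right), 1 panel per RNA, with a line joining libraries of the same replicate number. Every line runs lower at its cKO end, and the groups do not overlap for mt-Nd1, mt-Nd2 and mt-Nd4.

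Summed over the 9 RNAs, the level was 740.1, 850.3, 634.3 and 601.6 FPKM in cKO replicates 1, 3, 4 and 5, against 1051, 1109, 969.9 and 844.6 FPKM in WT. Replicate 3 was the highest and replicate 5 the lowest of each group, and cKO replicate 3 lay just above WT replicate 5. The medians of the 9 differences within pairs 1, 3, 4 and 5 were −0.51, −0.38, −0.48 and −0.53, while the medians over all genes were 0.01, −0.02, −0.01 and 0.00. The sums made up 0.169%, 0.205%, 0.142% and 0.137% of all FPKM of the table in cKO, against 0.256%, 0.267%, 0.219% and 0.196% in WT. The RNAs encoded near the start of the chromosome M sequence (mt-Rnr1, mt-Rnr2 and mt-Nd1) and those near its end (mt-Nd5, mt-Nd6 and mt-Cytb) were lower in cKO in every pair.

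**Figure D2:**
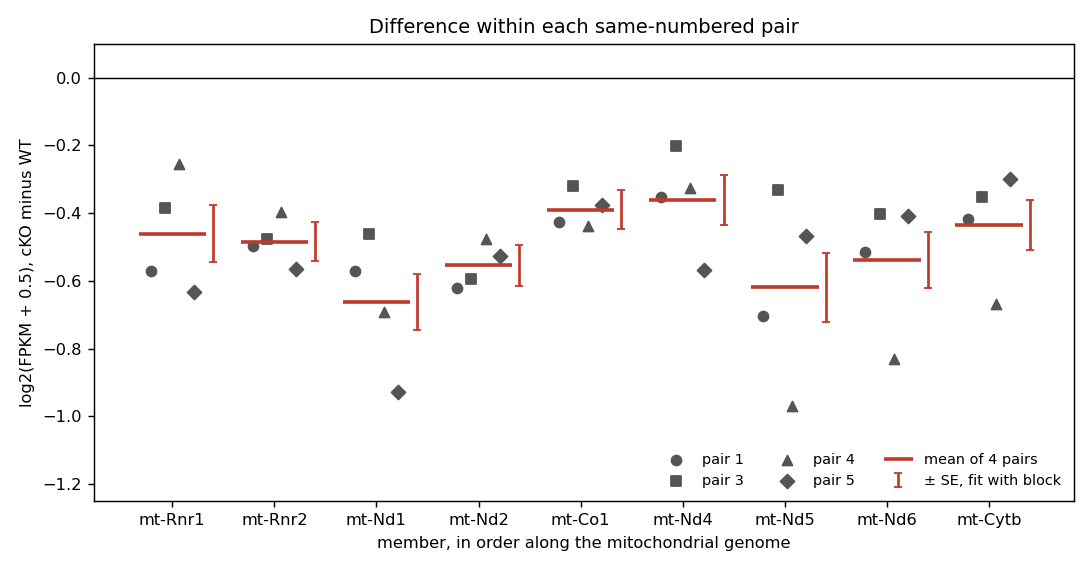
Difference in log2(FPKM + 0.5), cKO minus WT, of each mitochondrially encoded RNA within each same-numbered pair of libraries, with 1 marker shape per pair, a red bar for the mean of the 4 pairs and a red error bar for the mean ± its standard error in the fit with the block. All 36 points lie below 0, and mt-Nd5, mt-Nd1 and mt-Nd6 are spread the most between pairs.

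Whether some of the 9 RNAs were lower by more than others could not be settled with 4 libraries a group. The log2 ratio of 2 RNAs within a library was compared between the groups for all 36 pairs of RNAs with a two-sided exact permutation test, which has 70 assignments and allows no p below 0.0286. The ratio of mt-Nd1 to mt-Nd4 was 1.15 ± 0.084 in cKO and 1.45 ± 0.14 in WT on the log2 scale (SD, n = 4 each), a difference of −0.30 (exact permutation p = 0.0286, Benjamini-Hochberg adjusted p = 0.882 over the 36 pairs). This was the only pair with an unadjusted p under 0.05, and 0 of 36 passed after adjustment. This test does not use the pairing of the libraries. Within the same-numbered pairs, the difference of a ratio had the same sign in all 4 for 7 of 36 ratios, among them mt-Nd1 to mt-Nd4 at −0.22, −0.26, −0.37 and −0.36 and mt-Nd2 to mt-Co1 at −0.19, −0.28, −0.04 and −0.15 in pairs 1, 3, 4 and 5. With random signs, a share of 0.125 of ratios would agree in all 4 pairs. The 36 ratios are not independent, since they are built from 9 RNAs. An exact two-sided sign-flip test over 4 pairs allows no p below 0.125, so no ratio could pass it, and neither test shows that the RNAs changed equally.

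Levels per length differed far more between the RNAs than between the groups. By WT mean the order was mt-Co1, mt-Nd6, mt-Cytb, mt-Nd1, mt-Nd5, mt-Rnr2, mt-Nd2, mt-Nd4 and mt-Rnr1. The ranges of mt-Cytb and mt-Nd1, of mt-Nd1 and mt-Nd5, and of mt-Nd5 and mt-Rnr2 overlapped in both groups, and each other neighbouring pair was separate in both groups. In the cKO libraries the mean of mt-Nd5 lay above that of mt-Nd1, at 71.6 against 69.0 FPKM. By mean FPKM mt-Co1 ranked 214 among all genes, mt-Nd6 ranked 369 and mt-Rnr1 ranked 5243, and mt-Rnr1 was thus near the middle of the table.

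**Figure D3:**
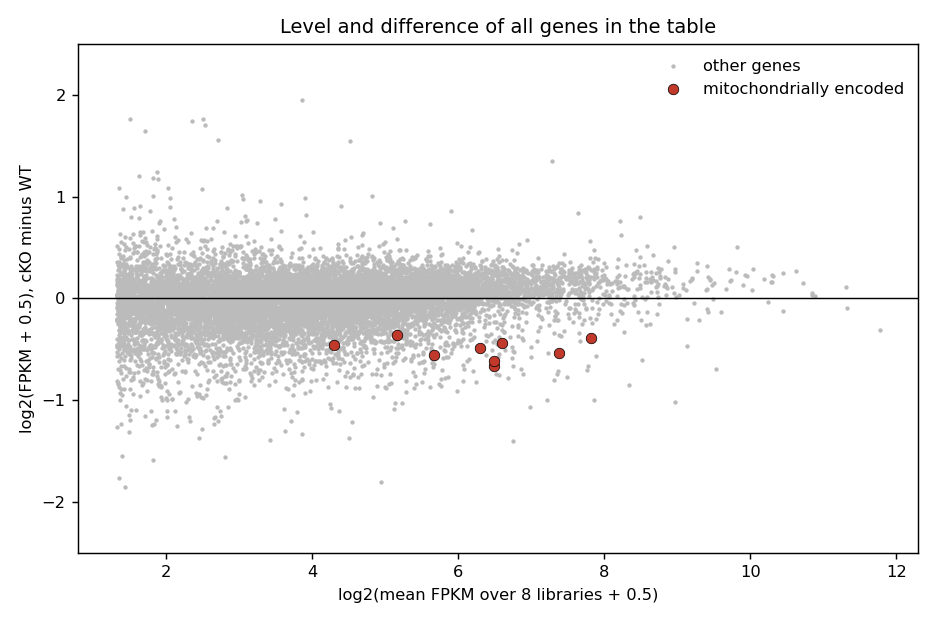
Each gene of the table by its mean level over the 8 libraries (horizontal axis, log2(mean FPKM + 0.5)) and its difference in log2(FPKM + 0.5), cKO minus WT (vertical axis), with the 9 mitochondrially encoded RNAs in red. The red points lie between −0.36 and −0.66 over a wide range of levels, and 3 other genes fall beyond the vertical axis limits of 2.5 in either direction.

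Parts of several mitochondrial genes occur again in nuclear DNA, and reads from such stretches cannot be assigned by sequence alone. The mitochondrial transcripts were cut into all words of 50 bases, and each word was looked for in all other annotated transcripts. The share found elsewhere was 62.2% for mt-Nd4, 51.1% for mt-Co1, 8.19% for mt-Nd2, 7.61% for mt-Nd5 and 1.04% for mt-Rnr2, and 0% for mt-Rnr1, mt-Nd1, mt-Nd6 and mt-Cytb. The 4 RNAs without a shared word had log2 differences of −0.46, −0.66, −0.54 and −0.43, all called lower with the block. Of the 6 protein-coding genes outside the table, mt-Co2, mt-Atp6, mt-Co3, mt-Nd3 and mt-Nd4l had 98.0% to 100% of their words elsewhere. The sixth, mt-Atp8, had 0% and is 204 bases long. Whether shared sequence decided which genes are in the table was not tested.

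Most shared words lay in a row of pseudogenes on the minus strand of chromosome 1 that repeats the mitochondrial segment from mt-Co1 to mt-Nd4. Gm28439, at 24611535 to 24612410, repeats 876 bases of mt-Nd4 with 0 differences. Gm29216, at 24615706 to 24616197, repeats mt-Co1 with 6 differences in 492 bases. Altogether 15 other genes shared a word with a mitochondrial gene, and 0 of these were in the table. The first 60 bases of 3 copies are shown beside the mitochondrial sequence they match, since they show how nearly alike the sources are. Capitals mark the bases at which copy and original differ.
mt-Co1 from base 1054: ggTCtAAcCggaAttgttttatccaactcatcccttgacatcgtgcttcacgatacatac
Gm29216: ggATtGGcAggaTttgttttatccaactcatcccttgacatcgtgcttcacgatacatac
mt-Co2: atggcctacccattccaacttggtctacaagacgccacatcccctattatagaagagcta
Gm28661: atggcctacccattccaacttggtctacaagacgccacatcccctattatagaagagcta
mt-Nd3: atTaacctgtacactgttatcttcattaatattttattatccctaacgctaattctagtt
Gm28438: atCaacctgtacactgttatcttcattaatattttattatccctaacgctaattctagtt
Gm28661 lies at 24614885 to 24615565 and equals mt-Co2 over all its 681 bases, and Gm28438 lies at 24612775 to 24613119 and has 1 difference from mt-Nd3 in 345 bases. Values for mt-Nd4 and mt-Co1 are therefore less certain than the others, since the authors' counting could have split their fragments with these copies.

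**Figure D4:**
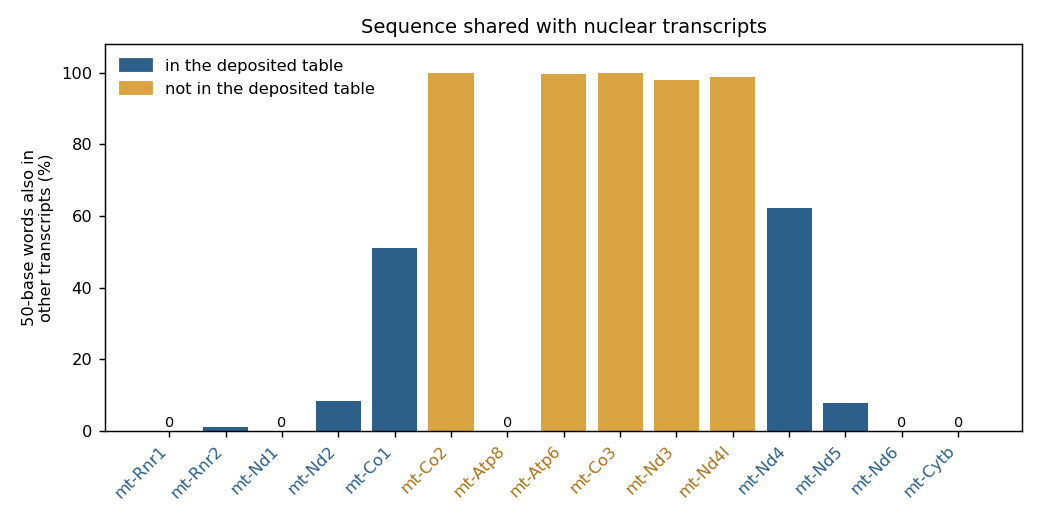
Share of the 50-base words of each mitochondrial rRNA and protein-coding gene (vertical axis, percent) that occur in another annotated transcript, for genes in the table (blue) and genes outside it (ochre). Among genes of the table mt-Nd4 and mt-Co1 reach 62.2% and 51.1%, and 5 of 6 genes outside it reach 98.0% or more.

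Nuclear genes for subunits of the same complexes rose where they passed the test. Of the 74 measured nuclear subunits of complexes I, III, IV and V, 16 rose and 0 fell in cKO with the block, against 2.99% and 7.59% of all genes, and 58 did not pass. Their median log2 difference was 0.21, and 70 of 74 values were positive. Without the block 0 of 74 passed in limma, as did 0% of all genes. Of the 74, 5 had an unadjusted p under 0.05, all higher in cKO. Among all genes 1310, or 10.6%, had such a p in either direction, and 823 of these were lower in cKO.

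In complex I, 6 of 37 nuclear subunits rose. Ndufa1, an accessory subunit, averaged 185 ± 39.9 FPKM in cKO and 153 ± 40.6 FPKM in WT, with a log2 difference of 0.29 (adjusted p = 0.0257 with the block and 0.610 without). Ndufb8 was higher by 0.33 (0.0338 and 0.472) and Ndufv3 by 0.31 (0.0373 and 0.469). In complex III, partner of mt-Cytb, 2 of 9 rose, namely Uqcrh by 0.36 (0.0245 and 0.453) and Uqcr10 by 0.34 (0.0234 and 0.469). In complex IV, partner of mt-Co1, 3 of 11 rose, namely Cox8a by 0.31 (0.0253 and 0.499), Ndufa4 by 0.30 (0.0450 and 0.516) and Cox5b by 0.33 (0.0475 and 0.476). In complex V, none of whose mitochondrial genes is in the table, 5 of 17 rose, led by Atp5mpl, which averaged 464 ± 62.1 FPKM in cKO and 347 ± 58.3 FPKM in WT (log2 difference 0.42; 0.0132 and 0.453). Complex II has no mitochondrial subunit, and of its 4 genes Sdhc rose by 0.26 (0.0302 and 0.483).

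The mean log2 level of the 7 mitochondrial mRNAs minus that of the 74 nuclear subunits was −0.81, −0.29, −1.08 and −1.18 in cKO replicates 1, 3, 4 and 5, against 0.07, 0.26, −0.30 and −0.50 in WT. It was lower in cKO in every pair, by −0.89, −0.55, −0.78 and −0.68, and its mean was −0.84 ± 0.40 in cKO and −0.12 ± 0.35 in WT (SD, n = 4 each). In both groups replicate 3 was the highest and replicate 5 the lowest, and cKO replicate 3 lay above both WT replicates 4 and 5. The tag is on cytosolic ribosomes, so this value sets RNAs that the pull-down does not select against RNAs that it does.

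**Figure D5:**
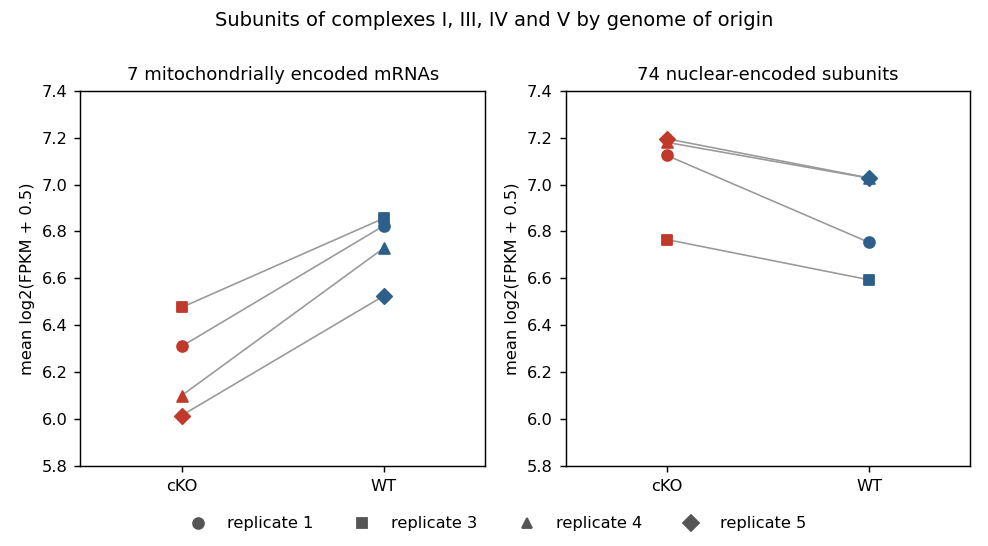
Mean log2(FPKM + 0.5) (vertical axes) of the 7 mitochondrially encoded mRNAs (left panel) and of the 74 nuclear-encoded subunits of complexes I, III, IV and V (right panel) in each cKO library (red) and WT library (blue), with a line joining libraries of the same replicate number. The log axes do not start at 0. In every pair the mitochondrial mean is lower and the nuclear mean higher in the cKO library, as in pair 1, with 6.31 in cKO against 6.82 in WT for the mitochondrial mRNAs and 7.12 in cKO against 6.75 in WT for the nuclear subunits.

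No gene listed for making or maturing mitochondrial RNA was called with the block. Of all genes, 2.99% were called higher and 7.59% lower, and 3503 of 12339 had an unadjusted p under 0.05 with the block. The lists are short, and whether 0 calls in them differ from those shares was not tested. Of 20 listed genes for transcription and replication of mitochondrial DNA, 19 were in the table, 0 rose and 0 fell in limma with the block (0 higher and 2 lower at an unadjusted p under 0.05), with a median log2 difference of 0.01. Polrmt, the mitochondrial RNA polymerase, averaged 11.3 ± 1.53 FPKM in cKO and 13.99 ± 2.46 FPKM in WT (−0.29, adjusted p = 0.0713 with the block and 0.493 without). Of 29 genes for processing and stability of mitochondrial RNA, 28 were measured, 0 rose and 0 fell (2 higher and 2 lower unadjusted), with a median of −0.01. Pnpt1, the mitochondrial polynucleotide phosphorylase, was at −0.30 (0.0632 and 0.474), Ptcd3, a protein of the mitochondrial ribosome, at −0.25 (0.0689 and 0.476), and Trmt10c, a subunit of the ribonuclease P that cuts tRNAs from the precursor, at 0.27 (0.147 and 0.469). Of 8 nuclear regulators of mitochondrial genes, 0 passed in either direction (0 higher and 2 lower unadjusted), and Ppargc1b, a coactivator, was at −0.24 (0.0727 and 0.538).

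Genes taken as a measure of mitochondrial content passed in 1 of 23 cases with the block, and assembly factors of complex I in 1 of 15, both no more than the 10.6% called among all genes. Vdac1, the main pore of the outer membrane, rose to 552 ± 35.7 FPKM in cKO, against 453 ± 54.0 FPKM in WT (log2 difference 0.29, adjusted p = 0.0318 with the block and 0.469 without), and the median of the 23 was 0.08. The next genes by blocked p did not pass and went both ways. Phb was at 0.22 (0.103 and 0.469), Immt at −0.17 (0.115 and 0.489) and Timm44 at −0.17 (0.120 and 0.547). Of 15 assembly factors of complex I, 0 rose and 1 fell, the flavoprotein Foxred1, by 0.30 (0.0376 and 0.469). Of 12 measured genes of the mitochondrial stress response, 2 rose, against 2.99% of all genes, namely the transcription factors Atf5 by 0.46 (0.0307 and 0.453) and Ddit3 by 0.41 (0.0355 and 0.453).

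RNAs that stay in the nucleus moved with the mitochondrial RNAs. Of 7 measured nuclear-retained RNAs, 5 fell in cKO with the block, against 7.59% of all genes, with a median of −0.91 over the 7. Among them were Malat1, a long noncoding RNA of nuclear speckles, which fell by 0.69 (adjusted p = 0.00491 with the block and 0.656 without), and Meg3, an imprinted noncoding RNA, which fell by 1.06 (0.00162 and 0.469). The mean log2 level of the 6 other than Xist was 5.03, 5.81, 4.49 and 4.01 in cKO replicates 1, 3, 4 and 5, against 5.997, 6.48, 5.22 and 4.85 in WT, so it too was highest in replicate 3 and lowest in replicate 5. Its differences within pairs were −0.96, −0.68, −0.74 and −0.83. The mean of 81 genes annotated as unconfirmed or intronic transcripts differed by −0.38, −0.29, −0.41 and −0.36 within pairs. With the first measure as a covariate and no block, the median difference of the 9 mitochondrial RNAs was −0.25, and with the second −0.27, both with 0 of 9 called. Since both measures differ by nearly the same amount in each pair, they and the groups cannot be told apart once the block is used.

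Some markers of other retinal cells also differed, where with the block 2.99% of all genes rose and 7.59% fell. Ganglion cell markers rose in 0 and fell in 4 of 8, with summed levels of 57.1 to 79.1 FPKM in cKO and 75.6 to 103 FPKM in WT, and amacrine and horizontal cell markers rose in 0 and fell in 3 of 7, at 163 to 206 FPKM in cKO and 211 to 242 FPKM in WT. Bipolar cell markers rose in 5 of 10, and cone markers rose in 1 and fell in 4 of 7. Rod markers rose in 1 of 12 and Müller cell markers fell in 2 of 14, counts that differ by about 1 gene from those shares. Astrocyte markers rose in 2 of 5, at 344 to 491 FPKM in cKO and 197 to 355 FPKM in WT, the largest change being in Gfap, an intermediate filament that reactive Müller cells also make (1.35, adjusted p = 0.00521 with the block and 0.435 without). The part of the nuclear-retained RNAs and of these markers in the lower mitochondrial RNAs was not tested.

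Among all other genes, those whose log2 level followed the mean of the 9 mitochondrial RNAs most closely over the 8 libraries were Sptbn4 (Pearson r = 0.996), Hadha (0.992), Ankrd11 (0.991), Ist1 (0.991), Nek9 (0.990) and Ppfia4 (0.989). These are descriptions, since the 8 libraries include the difference between the groups and share their preparation. Sptbn4 encodes a spectrin of the axon initial segment, and Hadha a subunit of the mitochondrial trifunctional protein of fatty acid oxidation. Hadha averaged 41.0 ± 5.60 FPKM in cKO and 54.3 ± 4.86 FPKM in WT, and the log2 differences of Sptbn4 and Hadha were −0.85 and −0.41.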

How the data were processed

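RNA-seq values of 8 mouse retina RiboTag samples, 4 cKO and 4 WT, were analysed. The authors deposited 1 table of FPKM with 12339 genes. Per the labels, RNA came from an RNeasy Micro kit and libraries from NEBNext poly(A) selection and directional kits. Per the submitters' processing notes STAR, edgeR, GRCm38 and mm10 were used, without version or role. The counting tool, strand setting and gene filter are not given in the sources used here. Nonzero values go down to 4.39e-230, whole reads could not be recovered, and the depth is unknown, so no counting interval was computed.

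Values were used as log2(FPKM + 0.5), which understates changes of low genes. Differences between cKO and WT came from limma 3.58.1 under R 4.3.3 (lmFit; eBayes with trend; two-sided; Benjamini-Hochberg over 12339 genes, threshold 0.05), without a block (6 residual degrees of freedom) and with the replicate number as a block (3). After group means were removed, same-numbered cKO and WT libraries correlated across genes at 0.261 to 0.591 and others at −0.479 to 0.211, so the numbers were taken to pair the samples. Pair 1, at 0.261, was little above the 0.211 of cKO replicate 4 with WT replicate 5. Removing the group means also pushes the other correlations down where the same-numbered ones are positive, so their negative values add little. In simulated data of 12339 genes, the fit without the block recovered 31% of changes of 0.5 and 84% of changes of 1 on the log2 scale, and with the block 36% and 82%. There were 100 changed genes of each size, and unchanged genes gave 1 false call without the block and 5 with it. The simulated noise was normal and independent between genes, with equal variance from the pair and from the library. It therefore cannot show how many false calls arise where genes vary together.

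GENCODE M21 holds 12327 of the gene IDs and gave coordinates, transcript sequences and gene classes. The members and the gene lists were chosen with earlier results of these data known. All 9 members are named. From each list the text names up to 4 genes with the smallest blocked p, and, by Pearson's r, the 6 genes most like the members' mean. Xist was named after its values were seen. Other settings varied the pseudocount, minimum level, scaling, weights, empirical Bayes options, threshold, block and libraries.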

Additional observations from a re-analysis of the deposited data

Results flagged for a closer look

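Of 194 groups of 4 libraries checked, 10 held a library far from the other 3, which is about the 1 in 20 that chance gives. Of the mitochondrial RNAs, mt-Nd2 was at 35.4 FPKM in cKO replicate 5, where the other cKO libraries were at 42.5 to 42.8. mt-Nd4 was at 36.4 FPKM in WT replicate 5, where the others were at 40.4 to 40.9, and mt-Cytb was at 91.8 FPKM there, where the others were at 117 to 118. Replicate 5 was the low library in all of these, but RNAs of the same library vary together, so these are not independent. In cKO replicate 3, Foxred1 was at 20.3 FPKM (others 14.4 to 15.2), Atp5k at 165 (239 to 248), Ndufb8 at 118 (167 to 175) and Cabp5 at 182 (242 to 246). In cKO replicate 4, Slc6a9 was at 8.14 FPKM (14.8 to 16.0). In WT replicate 4, Atf5 was at 50.3 FPKM (35.9 to 36.9) and Glul at 5101 (3317 to 3595).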

How the results depend on the processing

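Without the block, the 9 mitochondrial RNAs were lower in cKO in 23 of 23 settings (207 of 207 values, −0.18 to −0.82 on the log2 scale), with 0 values at an adjusted p under 0.05. With the block they were lower in 9 of 9 settings (81 of 81 values, −0.28 to −0.73), with 73 passing. Every setting refits the same 8 libraries or part of them, and the 9 RNAs vary together. These counts are therefore not independent of each other and show only how far the values depend on the processing. The paired fit, which has the replicate number as a block, called 9 of 9 members and 1305 genes, against 0 and 0 without it. With the block it called 9 members and 1300 genes after median-of-ratios scaling, 9 and 1064 after quantile scaling, and 9 and 1250 after a correction for length and GC content. Leaving out 1 pair at a time gave 5 members and 402 genes without pair 1, 9 and 606 without pair 3, 8 and 524 without pair 4, and 8 and 821 without pair 5. Pairs 1 and 3 alone gave 7 members and 923 genes, with a median difference of −0.48. Without the block, library weights called 1 gene and moved the members' median difference to −0.56 from −0.48, and the 6 libraries with Xist above 1 FPKM, which keep WT replicates 4 and 5 without their cKO partners, called 1 gene, with a median of −0.29. With the nuclear-retained RNAs as a covariate the median was −0.25, and with the genes annotated as unconfirmed or intronic −0.27. Leaving out 1 library at a time gave −0.58 without cKO replicate 3 to −0.40 without cKO replicate 5. For the 36 ratios between members, 0 passed in every setting run. The settings with GC content, covariates, Xist or pairs 1 and 3 alone were chosen after seeing the data. The causes were not tested. Unknown depth, the floor on mean FPKM and 3 residual degrees of freedom with the block, fewer where pairs were left out, limit what these values show.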
